A study of Mus musculus with 12 samples.

Results

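The genes described here encode the enzymes that add methyl groups to histones and those that remove them, in mouse 2-cell embryos. They were taken by gene symbol: the Kmt2 and Kmt5, Setd (with Setdb), Suv39h, Ehmt, Ezh, Nsd, Dot1l and Prmt genes as methyltransferases and the Kdm genes as demethylases, with the Y-linked Kdm5d left out. The symbols matched 54 genes, 36 methyltransferase symbols and 18 demethylase symbols, of 17866 genes listed in the knockdown table and 19390 in the pulldown table. Of these, 53 stood in both tables, and Setd7 stood in the knockdown table alone. The match was by symbol, so it also took in genes whose products act mainly on other proteins, and Kdm4dl and Setd9-ps, which are pseudogenes by their RefSeq entry and by their symbol.

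Histone methylation marks the state of a gene by the residue that carries it. Methylation of H3K4 marks promoters and enhancers and that of H3K36 marks transcribed gene bodies, whereas H3K9, H3K27 and H4K20 methylation mark silent chromatin, and protein arginine methyltransferases act on histones and on many RNA-binding and splicing proteins. After fertilization the marks brought in by oocyte and sperm are rewritten while the embryo starts to transcribe its own genome, which in the mouse happens chiefly at the 2-cell stage, and many of the enzymes are first supplied as maternal mRNA stored in the oocyte.

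The knockdown comparison used 2 control and 2 knockdown libraries. By the series' design text, 1-cell embryos of CF1 females, an outbred mouse stock, were microinjected with mRNA for RfxCas13d, an RNA-guided RNase, either alone (control, genotype label WT) or together with guide RNA against Eif1ad3 and related transcripts (Eif1ad3_KD), and were collected at the 2-cell stage. The protocol attached to the samples instead describes oocytes, morpholino oligos and Cas13d protein; both are given here as the labels have them. The pulldown comparison used 2 anti-His and 2 IgG libraries, all labelled Eif1ad3_OE: an in vitro made mRNA coding for Eif1ad3 with a His tag was injected into zygotes at 200 ng/uL, and RNA was recovered at the 2-cell stage with anti-His beads or with non-specific IgG beads, the negative control, from 200 cells per replicate. The tagged protein came from injected mRNA on top of the embryo's own Eif1ad3, and every group is a pool of whole embryos, in which fewer cells of a kind and less RNA per cell cannot be told apart. The labels do not say whether replicates A and B came from separate collections, so p-values measure only the spread between these libraries.

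Values are CPM, the reads of a gene scaled to a common library size, and they stepped in whole reads. The knockdown libraries held 18173916 to 27902514 reads each and the pulldown libraries 4678563 to 8364126, so 3 reads were worth 0.108 to 0.165 CPM and 0.359 to 0.641 CPM respectively. Eif1ad3 itself stood at 839 and 663 CPM in the controls and at 277 and 377 CPM in the knockdown libraries, 43.5% of the control mean, but did not pass the test (log2 fold change -1.21, SE 0.33, limma adjusted p = 0.859). In the pulldown, where its mRNA had been injected, it was at 1.35 and 30.8 CPM with IgG and at 80.3 and 83.6 CPM with anti-His. The 9 listed markers of the 2-cell stage summed to 3439 and 3411 CPM in the controls and to 2522 and 2898 CPM in the knockdown libraries, and 10 oocyte genes summed to 4628 and 3906 CPM against 7898 and 4389 CPM. All 10 oocyte genes were above 0 in these 4 libraries. The 6 listed cumulus and granulosa markers summed to 7.92 to 15.2 CPM. These sums moved with the groups or with 1 knockdown library, and their part in the values below was not tested. In the pulldown table the oocyte genes summed to 3487 and 4542 CPM with IgG and to 8689 and 9128 CPM with anti-His. The 2-cell markers summed to 127 and 992 CPM with IgG and to 596 and 697 CPM with anti-His, 6 blastocyst markers to 855 and 35.7 CPM against 249.9 and 284 CPM, led by Gata4, and 4 sperm markers to 47.4 and 54.3 CPM against 4.42 and 10.4 CPM, the IgG values being Prm2 alone. Of 8 listed cumulus and granulosa markers, 7 and 8 were at 0 with IgG. The part of these sums in the pulldown values was not tested. Of all listed genes, 64.8% and 63.0% had no read with IgG, and 26.5% and 27.4% had none with anti-His.

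No methylation enzyme gene passed the test between knockdown and control embryos. In limma on log2(CPM + 1), with Benjamini-Hochberg adjustment over the 13332 genes that reached 1 CPM in 2 or more libraries, 0 of the 50 genes tested had an adjusted p under 0.05, where the share of all genes called was also 0%. The smallest adjusted p among them was 0.859. Unadjusted p was under 0.05 for 4 of the 50 (8%), against 5.45% of all genes, and the 4 were Setd6, Kdm1b, Prmt3 and Kdm5b. On the recovered reads edgeR and DESeq2 also called 0 of them, with 3 unadjusted p under 0.05 in each, where edgeR called 0% and DESeq2 0.113% of all genes. With replicate letter as a block limma called 0.015% of all genes and again 0 of them. Kdm4d, Kmt5c, Setd7 and Setd9-ps were below the level required for the test, and none of these 4 exceeded 2.61 CPM in any of the 4 libraries.

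The values leaned to the lower side in the knockdown libraries. Both knockdown libraries lay below both controls for 17 of the 50 genes (34.0%), against 18.4% of all genes, and above both for 6 (12.0%), against 18.1% of all genes; the other 27 overlapped. The mean on the log2 scale of the test was lower in the knockdown for 31 of the 50 and higher for 19. On that scale 51.3% of all genes had a higher mean. The median log2 fold change was -0.17 over the enzyme genes and 0.02 over all genes tested. None of these shares was tested, and the genes are not independent of each other.

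**Figure D1:**
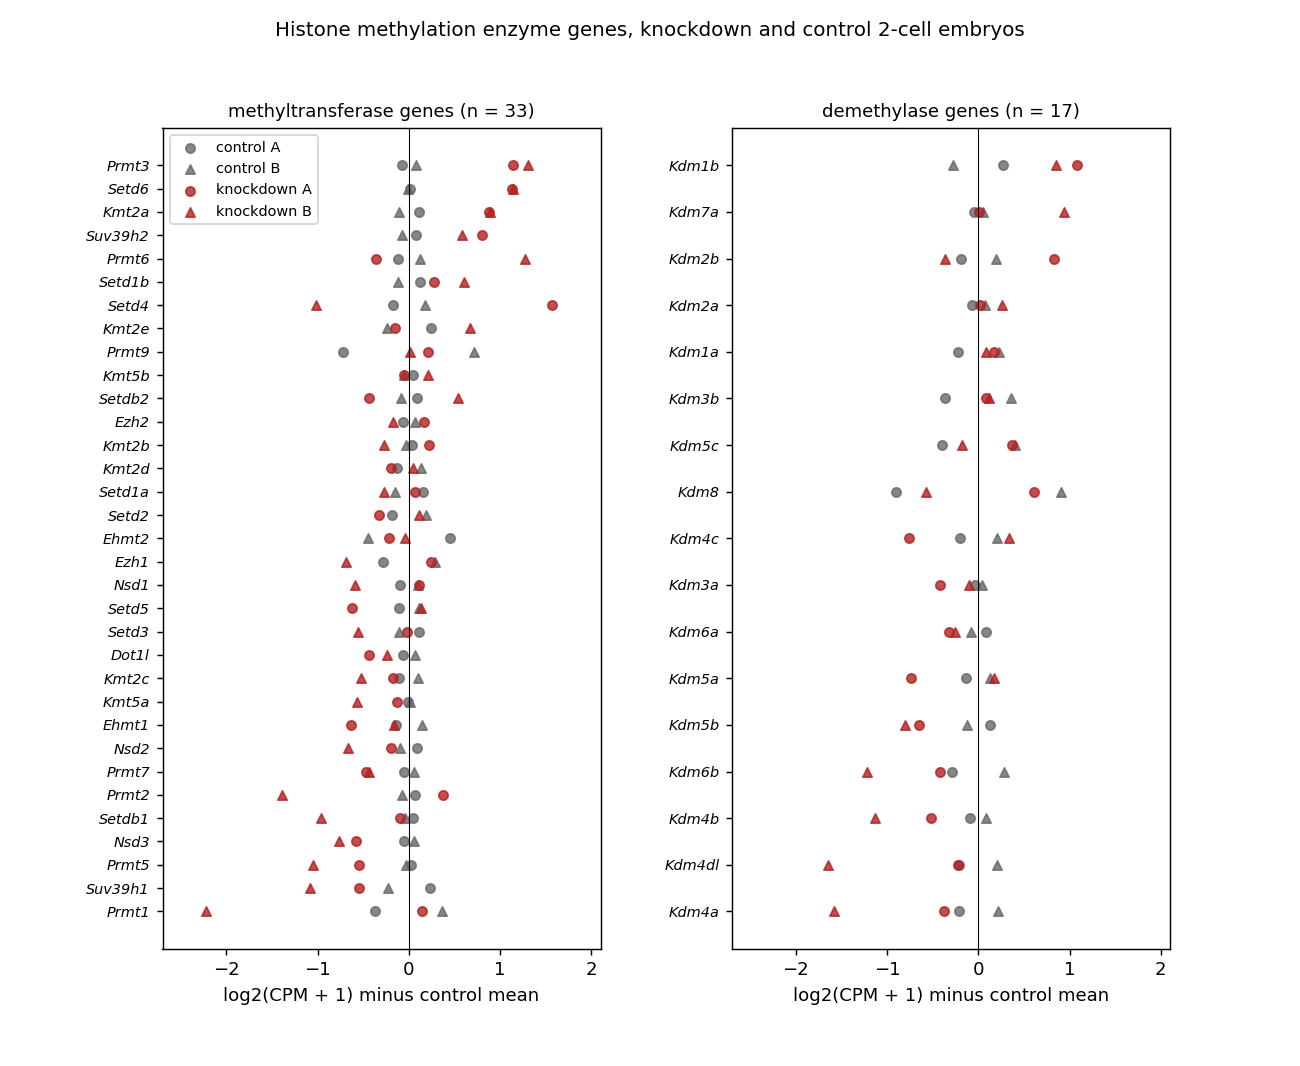
Each row is one methylation enzyme gene and each point one library, as log2(CPM + 1) minus the mean of the 2 control libraries; grey marks controls, red knockdown, circles replicate A and triangles replicate B, and rows are ordered by the mean difference. The red pairs of Setd6, Prmt3 and Kdm1b lie to the right of both controls and those of Kdm5b and Suv39h1 to the left, while the red points of Setd4 lie on opposite sides.

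The medians of methyltransferases and demethylases lay on the same side. Of 33 methyltransferase genes tested, 10 were below and 5 above both controls (30.3% and 15.2%), and of 17 demethylase genes 7 were below and 1 above (41.2% and 5.88%). Of all genes, 18.4% were below and 18.1% above both controls. The median log2 fold change was -0.13 for methyltransferases and -0.22 for demethylases. By library, the methyltransferase median relative to the control mean was -0.10 in knockdown A and -0.24 in knockdown B, and the demethylase median was -0.22 and -0.18, beside 0.14 and -0.17 for all genes. In knockdown B the demethylase median was thus about that of all genes. The demethylase medians of the controls themselves were -0.19 and 0.19, so the control replicates lay further from each other than from the knockdown libraries on average.

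Summed levels were compared next. Methyltransferase transcripts summed to 2743 and 3054 CPM in the controls and to 2736 and 2542 CPM in the knockdown libraries. Demethylase transcripts summed to 1753 and 1764 CPM in the controls and to 1405 and 1616 CPM in the knockdown. Both knockdown sums lay below both controls in each class, although for methyltransferases knockdown A and control A were nearly equal, and without Suv39h1 the groups overlapped (2644 and 2983 CPM in controls, 2679 and 2503 CPM in the knockdown). The demethylase gap rested on Kdm5b, which made up 38.5% and 32.1% of the control sums: without it the controls held 1078 and 1197 CPM and the knockdown libraries 1013 and 1263 CPM, and the groups overlapped.

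**Figure D2:**
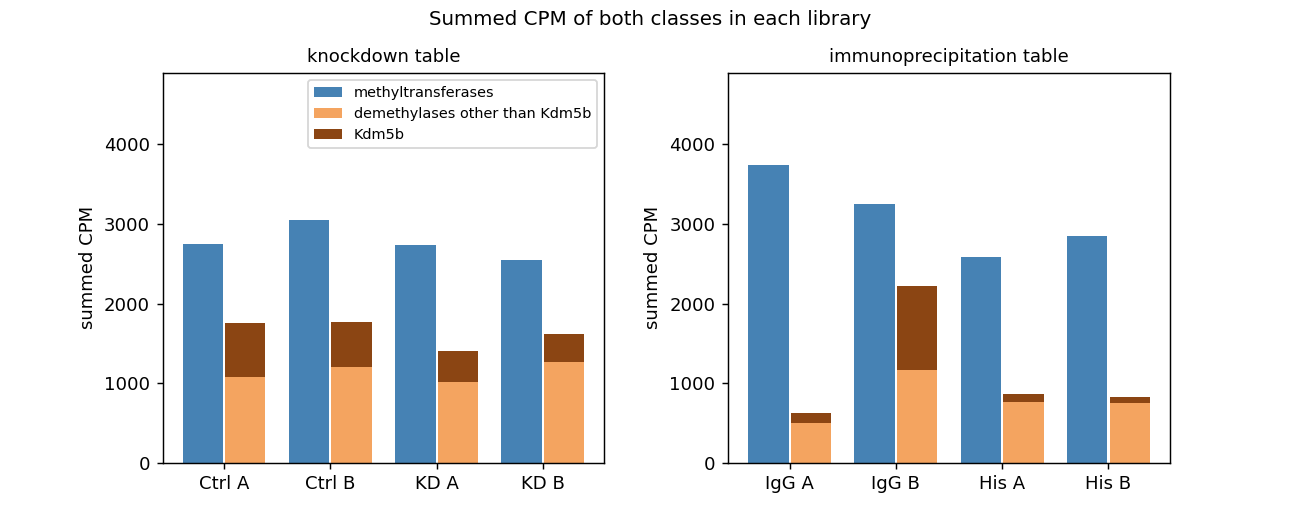
Bars show the summed CPM of methyltransferase genes (blue) and demethylase genes (orange, with the share of Kdm5b in brown) in each library, with the knockdown table at left and the pulldown table at right. The brown part shrinks from control to knockdown, and the IgG demethylase sums of 631 and 2225 CPM lie on either side of both anti-His sums.

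Promoters are shown for 4 of the genes whose knockdown and control values did not overlap: the H3K4 demethylases Kdm1b and Kdm5b, whose knockdown values lay on opposite sides of their controls, and the paralogous H3K9 methyltransferases Suv39h1 and Suv39h2, for which this was also so. Each run covers 250 bases before to 50 bases after the transcription start in RefSeq's GRCm38.p6 annotation, 5′ to 3′ on the gene's own strand, and CG dinucleotides are in capitals.
Kdm1b, chr13:47043249-47043548, plus strand: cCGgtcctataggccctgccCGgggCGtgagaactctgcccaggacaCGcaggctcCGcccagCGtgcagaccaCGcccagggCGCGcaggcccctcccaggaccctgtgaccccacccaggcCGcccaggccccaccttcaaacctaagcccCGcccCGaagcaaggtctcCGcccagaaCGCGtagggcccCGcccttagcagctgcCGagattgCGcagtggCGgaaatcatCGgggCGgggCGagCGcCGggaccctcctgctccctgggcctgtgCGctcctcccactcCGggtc
Kdm5b, chr1:134559928-134560227, plus strand: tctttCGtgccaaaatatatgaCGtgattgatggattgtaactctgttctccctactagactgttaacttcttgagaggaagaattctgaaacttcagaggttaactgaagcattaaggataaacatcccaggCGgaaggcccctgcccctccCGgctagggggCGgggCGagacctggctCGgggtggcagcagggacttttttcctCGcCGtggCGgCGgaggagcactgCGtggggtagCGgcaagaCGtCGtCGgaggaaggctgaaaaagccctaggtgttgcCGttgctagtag
Suv39h1, chrX:8074312-8074611, minus strand: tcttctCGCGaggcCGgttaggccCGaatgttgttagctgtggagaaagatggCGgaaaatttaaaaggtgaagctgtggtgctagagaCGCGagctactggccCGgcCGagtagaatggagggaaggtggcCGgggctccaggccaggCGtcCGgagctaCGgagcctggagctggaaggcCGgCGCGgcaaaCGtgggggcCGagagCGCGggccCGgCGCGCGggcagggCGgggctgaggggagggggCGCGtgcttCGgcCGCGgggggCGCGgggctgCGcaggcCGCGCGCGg
Suv39h1, second start, chrX:8074711-8075010, minus strand: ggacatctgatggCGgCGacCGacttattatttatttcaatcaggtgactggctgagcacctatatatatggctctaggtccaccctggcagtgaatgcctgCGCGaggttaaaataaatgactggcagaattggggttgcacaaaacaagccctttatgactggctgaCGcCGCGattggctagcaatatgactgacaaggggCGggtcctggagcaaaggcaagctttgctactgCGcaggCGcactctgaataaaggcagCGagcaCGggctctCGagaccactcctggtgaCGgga
Suv39h2, chr2:3474937-3475236, minus strand: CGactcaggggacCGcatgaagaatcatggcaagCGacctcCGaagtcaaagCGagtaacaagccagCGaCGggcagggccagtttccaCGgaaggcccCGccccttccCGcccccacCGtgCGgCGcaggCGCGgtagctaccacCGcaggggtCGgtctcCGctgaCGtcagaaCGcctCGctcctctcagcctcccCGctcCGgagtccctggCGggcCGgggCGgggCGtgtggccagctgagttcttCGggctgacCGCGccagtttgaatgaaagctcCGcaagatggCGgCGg

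These windows held 26 CG dinucleotides for Kdm1b, 17 for Kdm5b, 37 and 15 for the 2 Suv39h1 starts and 33 for Suv39h2. RefSeq promoters were matched for 41 of the 54 genes, 53 promoters in all, and their median was 27 CG dinucleotides, against 7 over 32851 promoters of 27025 genes. Methyltransferase promoters had a median of 28 and demethylase promoters of 22.5. On either strand, TATAAA occurred in 1.89% of the 53 promoters and in 13.6% of all promoters, CCGGAAG in 17.0% against 8.86%, and GGATTA in 5.66% against 7.06%. These letters describe the windows only, and no binding data stand behind them.

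Among the writers of H3K4 methylation, 2 of 6 genes lay above both controls, 1 below, and 3 overlapped, beside 18.1% of all genes above and 18.4% below. Setd1b, a catalytic subunit of a COMPASS complex, was at 4.96 and 4.06 CPM in controls and at 5.63 and 7.32 CPM in knockdown libraries (log2 fold change 0.44, limma adjusted p = 0.933). Kmt2a stood at 1.56 and 1.20 CPM against 3.37 and 3.41 CPM, low levels but with no overlap. Kmt2c, which with Kmt2d methylates H3K4 at enhancers, was at 453 and 523 CPM in controls and at 431 and 339 CPM in the knockdown. Kmt2d overlapped, at 18.7 and 22.5 CPM against 17.7 and 21.2 CPM. Kmt2b, needed in the oocyte for H3K4 trimethylation, was at 13.7 and 13.1 CPM against 15.8 and 10.9 CPM, so its knockdown libraries lay on either side of both controls.

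The writers of H3K9 methylation included a paralog pair on opposite sides. Suv39h1, which trimethylates H3K9 at pericentric heterochromatin, was at 99.0 and 71.6 CPM in controls and at 57.3 and 39.1 CPM in the knockdown, 56.5% of the control mean (log2 fold change -0.82, SE 0.40, limma unadjusted p = 0.0739, adjusted p = 0.859). Suv39h2, its paralog, was at 36.5 and 32.7 CPM against 61.2 and 52.2 CPM, 164% of the control mean (log2 fold change 0.69, SE 0.38, limma unadjusted p = 0.108, adjusted p = 0.859). In both genes the knockdown libraries lay entirely on one side of the controls. Neither passed the test, and the difference between the paralogs was not tested.

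Setdb1, the H3K9 methyltransferase recruited to retroelements by Trim28, was at 76.6 and 72.3 CPM in controls and at 69.2 and 37.6 CPM in the knockdown (log2 fold change -0.53, limma adjusted p = 0.885). Only the second knockdown library stood well apart. Ehmt1 and Ehmt2 form the G9a and GLP dimer that mono- and dimethylates H3K9. Ehmt1 was at 36.1 and 44.0 CPM against 25.4 and 35.4 CPM, whereas Ehmt2 overlapped at 12.9 and 6.47 CPM against 7.78 and 8.86 CPM. Setdb2 was at 90.9 and 80.5 CPM against 62.8 and 125 CPM, on either side of both controls.

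The writers of H3K27 methylation overlapped between the groups. Ezh2, the main catalytic subunit of Polycomb repressive complex 2, was at 358 and 395 CPM in controls and at 421 and 334 CPM in the knockdown, and its paralog Ezh1 also overlapped. Setd2, the enzyme that trimethylates H3K36, was at 685 and 889 CPM against 622 and 841 CPM and supplied 22.7% to 33.1% of the summed methyltransferase reads, which are not scaled for gene length, in the 4 libraries. Its control replicates lay further apart than the group means. Among the Nsd genes, which make H3K36 dimethylation, Nsd3 was at 24.8 and 27 CPM against 17.0 and 14.7 CPM (log2 fold change -0.67, limma adjusted p = 0.859). Nsd2 was at 67.3 and 59.0 CPM against 55.0 and 39.3 CPM (log2 fold change -0.43, limma adjusted p = 0.898), also without overlap. Nsd1, the enzyme behind most H3K36 dimethylation in the oocyte, overlapped at 142 and 162 CPM against 164 and 100.3 CPM.

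Dot1l, the H3K79 methyltransferase, was below both controls at 32.1 and 37.1 CPM against 41.9 and 46.2 CPM. Kmt5a, which monomethylates H4K20, was at 113 and 114 CPM in controls and at 103 and 76.1 CPM in the knockdown. Kmt5b, which acts after it, overlapped at 74.6 and 69.7 CPM against 69.5 and 83.9 CPM.

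Protein arginine methyltransferases lay on both sides of the controls. Prmt5, which makes symmetric dimethylarginine on histones and on spliceosomal Sm proteins, was at 56.8 and 54.6 CPM in controls and at 37.8 and 26.5 CPM in the knockdown (log2 fold change -0.80, SE 0.40, limma unadjusted p = 0.0819, adjusted p = 0.859). Prmt7, a monomethylating enzyme, was at 22.6 and 24.3 CPM against 16.6 and 16.9 CPM (log2 fold change -0.46, limma adjusted p = 0.903). Both were lower in both knockdown libraries. Prmt3, whose known substrate is a protein of the small ribosomal subunit, was at 4.96 and 5.62 CPM in controls and at 12.9 and 14.5 CPM in the knockdown (log2 fold change 1.22, SE 0.51, limma unadjusted p = 0.0432, adjusted p = 0.859). Prmt1, the main source of asymmetric dimethylarginine, was at 13.6 and 23.3 CPM against 19.9 and 3.03 CPM, Prmt2 at 79.7 and 72.1 CPM against 98.8 and 28.3 CPM, and Prmt6 at 29.6 and 35.0 CPM against 24.9 and 79.1 CPM. In these 3 genes the knockdown replicates lay on different sides of the controls or of 1 control.

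Setd6, a SET-domain enzyme known for methylating the NF-kB subunit RelA, had the closest replicates among the genes with unadjusted p under 0.05: 11.6 and 11.3 CPM in controls and 26.1 and 26.5 CPM in the knockdown, 229.8% of the control mean. Its log2 fold change was 1.13 (SE 0.45, limma unadjusted p = 0.0355, adjusted p = 0.859). Setd4 had the widest replicate gap of the knockdown libraries, with 113 and 18.0 CPM beside control levels of 33.2 and 42.5 CPM. Setd3, a histidine methyltransferase of actin, Setd5 and Kmt2e each overlapped between the groups.

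On the demethylase side, the H3K4 erasers held the genes with the smallest p. Kdm5b, a JmjC enzyme that removes H3K4 trimethylation, was at 675 and 567 CPM in controls (621 ± 76.2, SD, n = 2) and at 392 and 353 CPM in the knockdown (373 ± 27.6, SD, n = 2), 60.1% of the control mean. Its log2 fold change was -0.73 (SE 0.31, limma unadjusted p = 0.0437, adjusted p = 0.859). Kdm1b, the flavin-dependent demethylase needed in growing oocytes to set maternal imprints, was at 52.5 and 35.5 CPM in controls (44.0 ± 12.0, SD, n = 2) and at 92.2 and 78.8 CPM in the knockdown (85.5 ± 9.51, SD, n = 2). Its log2 fold change was 0.96 (SE 0.39, limma unadjusted p = 0.0376, adjusted p = 0.859). In both genes the groups did not overlap. Kdm1a, the other flavin-dependent enzyme, overlapped at 36 and 49.8 CPM against 47.8 and 44.8 CPM, as did Kdm5a at 112 and 134 CPM against 72.8 and 138 CPM and Kdm5c at 6.24 and 11.6 CPM against 11.3 and 7.43 CPM.

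Erasers of the Kdm3 and Kdm4 families, which act on H3K9 and, in part, H3K36, were below both controls for 3 of 5 genes tested, apart from Kdm4dl, a small set beside the 18.4% of all genes below both controls. Kdm4a, supplied by the oocyte and known to remove H3K9 and H3K36 trimethylation, was at 45.5 and 61.4 CPM in controls and at 40.4 and 16.9 CPM in the knockdown (log2 fold change -0.98, SE 0.50, limma unadjusted p = 0.0855, adjusted p = 0.859). Kdm4b was at 6.08 and 6.99 CPM against 4.26 and 2.42 CPM, and Kdm3a at 167 and 177 CPM against 128 and 159.6 CPM. Kdm4c was at 90.3 and 120.3 CPM against 60.9 and 131 CPM and Kdm3b at 9.32 and 16.1 CPM against 13.0 and 13.4 CPM, both overlapping. Kdm4dl, the Kdm4d-like pseudogene, was at 48.0 and 64.3 CPM in controls and at 47.6 and 17.1 CPM in the knockdown (log2 fold change -0.93, limma adjusted p = 0.859). Kdm4d itself did not exceed 1.08 CPM, and reads shared between these near copies could be split by the counting. With the first knockdown library left out, 7 enzyme genes passed the threshold, where 9.38% of all genes did: Kdm4a, Kdm4dl, Kdm5b, Prmt1 and Prmt2 as lower and Kdm7a and Prmt6 as higher (limma adjusted p = 0.0285, 0.0252 and 0.0342 for the first 3), in a fit where the lone knockdown library is assumed to vary like the controls; without the second knockdown library the change was -0.38 for Kdm4a, -0.22 for Kdm4dl and -0.65 for Kdm5b, none called, and over all alternatives the adjusted p of these 3 ranged from 0.0252 to 1.00.

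Of 3 genes for H3K27 erasers, Kdm6a and Kdm6b lay below both controls and Kdm7a did not, again beside 18.4% of all genes below. Kdm6a, which escapes X inactivation, was at 234 and 208 CPM in controls and at 176 and 184 CPM in the knockdown. Kdm6b was at 18.8 and 28.3 CPM against 17.0 and 9.35 CPM (log2 fold change -0.82, limma adjusted p = 0.859). Kdm7a, which acts on H3K9 and H3K27 dimethylation, was at 211 and 227 CPM against 219 and 418 CPM, and the second knockdown library alone stood high. Kdm2a, Kdm2b and Kdm8 overlapped, and Kdm8 had the widest gap between control replicates, at 0.720 and 5.02 CPM.

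Partner genes of these enzymes were also tested. A list of 49 subunits and related enzymes had 47 genes in the knockdown table, of which 44 were tested. None was called by limma, and 4 had an unadjusted p under 0.05 (9.09%, against 5.45% of all genes). Above both controls were 6 (13.6%, against 18.1%) and below 8 (18.2%, against 18.4%), and their median log2 fold change was -0.05. Eed, the Polycomb subunit that binds trimethylated H3K27, was at 124 and 133 CPM in controls and at 281 and 277 CPM in the knockdown (log2 fold change 1.11, limma adjusted p = 0.859). Trim28, the corepressor that recruits Setdb1, was at 149 and 155 CPM against 87.2 and 62.5 CPM (log2 fold change -1.03, limma adjusted p = 0.859). The other 2 were Prdm2, lower on average, and Rcor3, a partner of Kdm1a, at 3.68 and 3.09 CPM against 0.645 and 0.715 CPM.

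In the pulldown of His-tagged Eif1ad3, 5 of 49 methylation enzyme transcripts were higher than with IgG and 1 was lower. The 5 are 10.2% of the genes tested, where 35.7% of all 11232 genes were called higher, and the 1 lower gene stands beside 0.917% of all genes. The higher ones were Kdm4dl, Prmt7, Kmt2e, Nsd2 and Setd6, and the lower one was Suv39h1. Each of the 5 was under 1 CPM in both IgG libraries and so entered the test only through the anti-His libraries where it was high, which favours a call as higher; this was also so for 3644 of the 4008 genes called higher in all. Of the 49 genes, 5 entered in this way (10.2%, against 38.2% of all genes tested). Among the other 44 limma called none higher, where 5.25% of the other 6939 genes were. Both anti-His libraries lay above both IgG libraries for 15 of the 49 (30.6%), against 54.1% of all genes, and below both for 7 (14.3%), against 9.06%; together these are 44.9% of the genes tested, where 63.1% of all genes did not overlap. An unadjusted p under 0.05 was found for 10 of the 49 (20.4%), against 44.6% of all genes. The median log2 fold change was 0.79 over these genes and 2.01 over all genes. A mean of log2(CPM + 1) higher with anti-His than with IgG was found for 33 of the 49 and for 78.5% of all genes. Setting the 4 genes tested that were at 0 in both IgG libraries to their bounds left the enzyme median at 0.79. It could not have moved, since these genes lay above it either way.

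The comparison rested on IgG libraries that disagreed with each other. Of the 49 genes, 27 differed by more than 2 on the log2 scale between the IgG replicates, against 3 between the anti-His replicates. The median gap between IgG replicates was 2.21 for the enzyme genes and 0.97 for all genes. Prmt5 showed the widest, with 630.2 CPM in one IgG library and 0.855 CPM in the other. Of the 53 genes listed, 15 were at 0 in exactly 1 IgG library and 7 in both. Leaving out IgG A or B gave 33 or 25 called enzyme genes (67.3% and 51.0%), where 64.4% and 65.0% of all genes were called; these fits assume that the lone IgG library varies like the close anti-His pair. The count of 6 was 11 with DESeq2 on the recovered reads, 7 higher and 4 lower, where 49.1% of all genes were called. It was 0 with edgeR, where 6 had an unadjusted p under 0.05 and 0% of all genes were called. Median rescaling, which shifted every fitted change by the same -3.93, gave 0 higher and 8 lower, with 1 of all genes called higher and 2212 lower (19.7% in all), so that none of the 5 higher calls was kept. The replicate block gave 5, all higher, with 34.7% of all genes called.

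**Figure D3:**
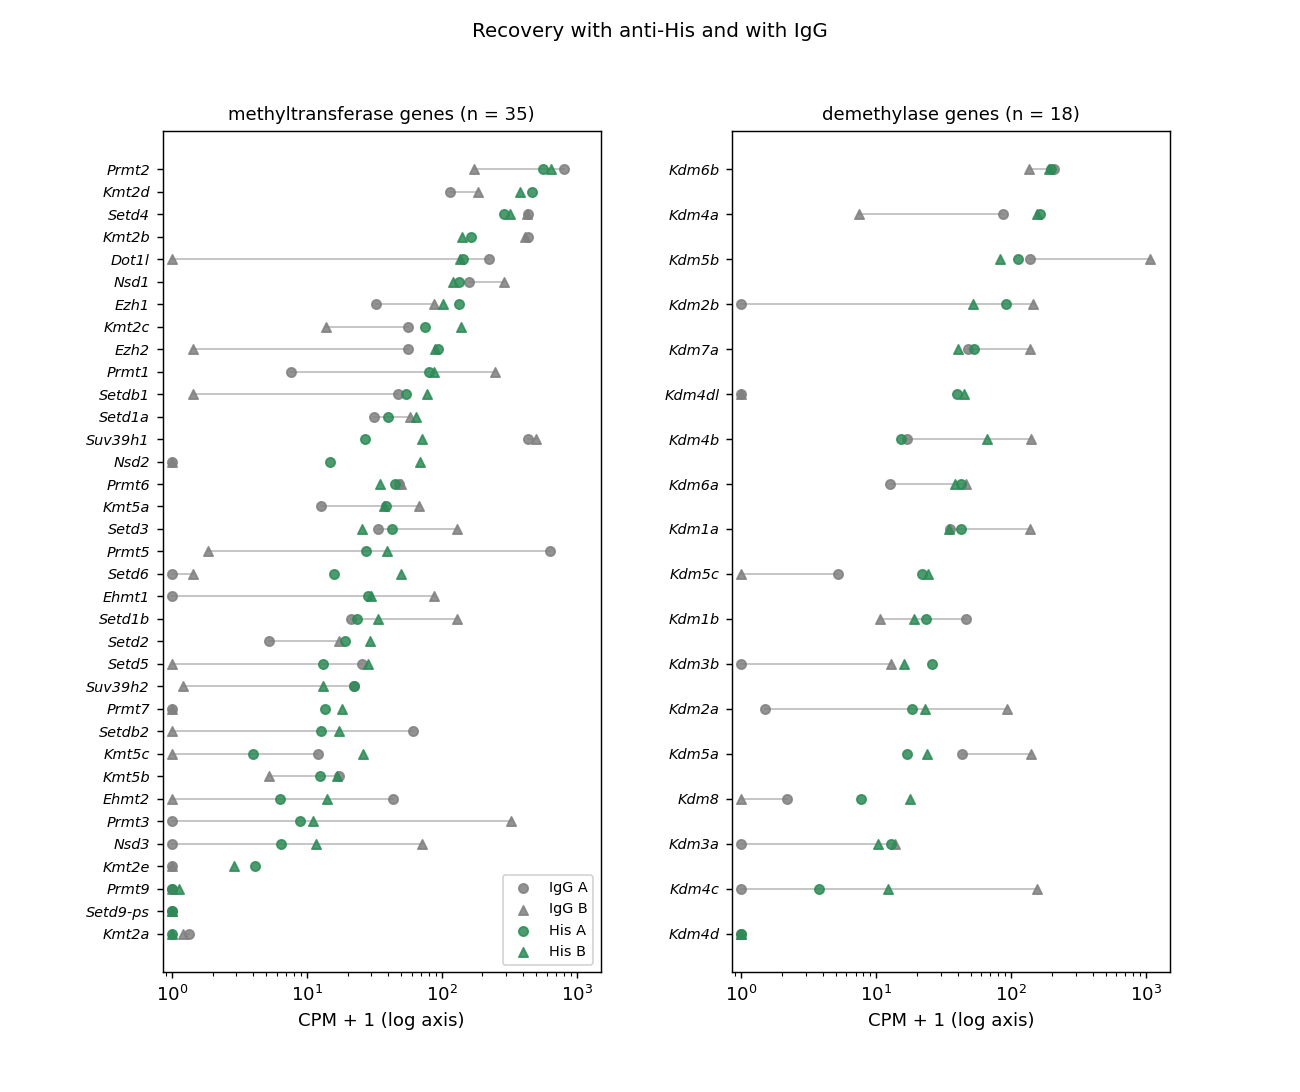
Each row is one methylation enzyme gene and each point one pulldown library as CPM + 1 on a log axis, methyltransferases at left and demethylases at right; green marks anti-His, grey IgG, circles replicate A, triangles replicate B, and a grey line joins the IgG replicates. The green points of a gene mostly lie close together, the grey ones are often far apart, and Suv39h1 has both grey points right of both green ones.

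Of the transcripts higher with anti-His, 4 had no read in either IgG library. Their bounds below cover counting error only, not transcripts that a library missed. Of the 53 genes listed, 15 were at 0 in exactly 1 IgG library, among them Prmt3, at 0 and 323 CPM. Kdm4dl was at 38.3 and 43.4 CPM with anti-His, at least 71.2-fold higher than the 0.574 CPM that 3 reads per IgG library are worth on average (limma adjusted p = 0.00997). Nsd2, an H3K36 dimethyltransferase, was at 13.9 and 68.2 CPM, at least 71.5-fold higher (limma adjusted p = 0.0303); taken singly, the anti-His libraries gave at least 24.2-fold and at least 118.9-fold. Prmt7 was at 12.7 and 17.1 CPM, at least 25.9-fold higher (limma adjusted p = 0.00997). Kmt2e, an MLL-family protein that binds H3K4 trimethylation, was at 3.11 and 1.89 CPM, from 26 and 15 reads, at least 4.36-fold higher (limma adjusted p = 0.0159). With either IgG library left out, the adjusted p of Kmt2e was 0.104 or 0.0982, and its fitted change turned to -2.14 after rescaling to the median gene (limma adjusted p = 0.0268), over a range of 9.75e-05 to 0.185 in all its alternatives. Setd6 had 0 and 2 reads with IgG and stood at 14.8 and 48.9 CPM with anti-His (limma adjusted p = 0.0242). Its fitted log2 change of 4.56 (SE 0.78) depends on the pseudocount and is no bound, and was 3.73 or 5.38 when an anti-His library was left out. Median rescaling and quantile normalization ended the call of each of these 5 genes as higher: after median rescaling the fitted change was 0.046 for Prmt7 (limma adjusted p = 0.936), 1.46 for Kdm4dl (0.139), 1.08 for Nsd2 (0.454) and 0.63 for Setd6 (0.590), and edgeR called none of them. Over all alternatives the adjusted p ran from 3.56e-06 to 0.966 for Prmt7, from 2.04e-07 to 0.359 for Kdm4dl, from 1.52e-05 to 0.510 for Nsd2 and from 3.81e-05 to 0.664 for Setd6. A pseudocount of 5 also ended the calls of Nsd2 and Setd6, and the absence of a filter that of Nsd2. Kdm4dl shares sequence with Kdm4d, which was at 0 in all 4 pulldown libraries.

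Suv39h1 was the lower one. It stood at 436 and 501 CPM with IgG and at 25.9 and 70.7 CPM with anti-His, 10.3% of the IgG mean (log2 fold change -3.41, SE 0.77, limma adjusted p = 0.0458). This change ran from -4.12 to -2.71 when a replicate was left out. The groups did not overlap, but 7 of 14 alternative fits put its adjusted p above the threshold, over a range of 3.05e-06 to 0.199 in all 14. Its paralog Suv39h2 overlapped, at 21.3 and 0.214 CPM with IgG and at 21.3 and 12.3 CPM with anti-His.

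Several transcripts were less abundant with anti-His than with IgG in both replicates but did not pass in the limma fit of all 4 libraries. Kmt2b was at 434 and 413 CPM with IgG and at 162 and 141 CPM with anti-His (log2 fold change -1.48, limma adjusted p = 0.0612). Its adjusted p was under 0.05 in 6 of 14 alternatives, over a range of 9.50e-05 to 0.270 in all 14. These 6 were DESeq2 (adjusted p = 9.50e-05), a pseudocount of 0.1, median rescaling with and without the block, and leaving out either IgG library. DESeq2 called 4766 of all genes higher and 747 lower. Median rescaling shifted every gene by -3.93, and without IgG A or B the change was -1.44 or -1.51. Setd4 was at 432 and 423 CPM against 290.0 and 321 CPM (log2 fold change -0.49, limma adjusted p = 0.309). Both had close replicates in each group. Kdm5b was at 137 and 1062 CPM with IgG and at 110.2 and 81.1 CPM with anti-His (log2 fold change -2.0, limma adjusted p = 0.339), and Kdm5a at 41.9 and 138 CPM against 15.9 and 22.6 CPM (log2 fold change -1.95, limma adjusted p = 0.284). DESeq2 called both lower (adjusted p = 0.00979 and 0.0138), as did limma without IgG A (adjusted p = 0.000775 and 0.00437), where the change was -3.48 for Kdm5b and -2.80 for Kdm5a; without IgG B it was -0.53 and -1.10, and neither passed. Their adjusted p ran up to 0.802 and 0.733 over all alternatives. The gap between the IgG replicates was wider than that between the nearest libraries of the 2 groups. Nsd1, at 157 and 287 CPM against 132 and 119 CPM (log2 fold change -0.75; -1.19 and called without IgG A, -0.32 without IgG B), and Prmt6, at 47.4 and 49.2 CPM against 43.9 and 33.6 CPM (log2 fold change -0.32), complete the 7.

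Others were more abundant with anti-His in both replicates and likewise did not pass in that fit. Kdm8 was at 1.18 and 0 CPM with IgG and at 6.70 and 16.8 CPM with anti-His (log2 fold change 2.99, limma adjusted p = 0.0520), and Kdm5c at 4.22 and 0 CPM against 20.9 and 23.0 CPM (log2 fold change 3.33, limma adjusted p = 0.0953). Kdm4a was at 86.2 and 6.41 CPM against 163 and 153 CPM (log2 fold change 2.65, limma adjusted p = 0.320). Ezh2 was at 55.0 and 0.427 CPM with IgG and at 92.9 and 88.4 CPM with anti-His (log2 fold change 3.36, limma adjusted p = 0.368), and Setdb1 at 46.1 and 0.427 CPM against 53.0 and 77.0 CPM (log2 fold change 2.98, limma adjusted p = 0.405). These values moved with the IgG library kept: without IgG A and without IgG B the change was 4.43 and 0.87 for Kdm4a, both called, 6.00 and 0.71 for Ezh2, and 5.51 and 0.46 for Setdb1, the last 2 genes called only without IgG A. For Kdm5c it was 4.52 and 2.14, both called, and for Kdm8 3.55 and 2.42, called without IgG A and by DESeq2. After quantile normalization Kdm5c and Kdm8 stood at -0.078 and -0.39, and after median rescaling all 5 were below 0. In Ezh2 and Setdb1 the IgG replicates lay further from each other than the higher one lay from the anti-His libraries. Kmt2d, at 113 and 184 CPM against 467 and 376 CPM, and Kmt2c, at 55.2 and 12.8 CPM against 73.4 and 137 CPM, were also above both IgG libraries. The shift of -3.93 by median rescaling put these 2 genes below 0 as well. Kmt2d (log2 fold change 1.53, limma adjusted p = 0.0952, a change singled out after its values were seen) was called higher by DESeq2 and by limma without either IgG library, and Kmt2c without IgG A. Also above both IgG libraries were Setd2, Ezh1 and Kdm3b, the last gene at 0 and 11.8 CPM against 24.6 and 14.9 CPM (log2 fold change 2.50, limma adjusted p = 0.337; 0.66 without IgG A, 4.34 and called without IgG B, and -0.25 after quantile normalization).

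The remaining 27 genes tested overlapped. Prmt2 was abundant in every pulldown library, at 797 and 171 CPM with IgG and at 556 and 647 CPM with anti-His. Kdm6b was at 206 and 134 CPM with IgG and at 195 and 191 CPM with anti-His. By contrast Dot1l was at 224 and 0 CPM with IgG and at 143 and 136 CPM with anti-His, and Kdm2b at 0 and 145 CPM against 89.9 and 50.6 CPM. Prmt3 was at 0 and 323 CPM with IgG and at 7.89 and 10.1 CPM with anti-His, and Prmt1 at 6.58 and 248 CPM against 79.1 and 85.9 CPM. In these 4 genes the anti-His values lay between the IgG values.

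Both classes were then compared in the pulldown. Of 32 methyltransferase genes tested 4 were called higher (12.5%) and 1 lower, and of 17 demethylase genes 1 was called higher (5.88%), against 35.7% of all genes higher and 0.917% lower. All 5 higher calls entered the test only through anti-His, and the demethylase call is the pseudogene Kdm4dl, so these counts do not compare the classes. Their median log2 fold changes were 0.93 and 0.73. Relative to the IgG mean, the methyltransferase median was 0.64 and 1.05 in the anti-His libraries and the demethylase median 0.63 and 0.67, against 1.95 in each for all genes. The demethylase medians of the IgG libraries were -0.93 and 0.93. After quantile normalization the medians were -0.71 for methyltransferases and -1.02 for demethylases, with -0.08 over all genes, so the sign of both class medians depended on the scaling. Median rescaling shifted both classes and all genes alike, to -2.99, -3.19 and -1.92.

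Methyltransferase transcripts summed to 3740 and 3257 CPM with IgG and to 2586 and 2853 CPM with anti-His, without overlap. Without Suv39h1 the sums were 3304 and 2756 CPM against 2560 and 2782 CPM, and the groups overlapped. Demethylase transcripts summed to 631 and 2225 CPM with IgG and to 868 and 832 CPM with anti-His. Kdm5b made up 47.7% of the larger IgG sum. Without it the IgG sums were 494 and 1163 CPM and the anti-His sums 758 and 751 CPM.

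Of 40 partner genes tested in the pulldown, 13 were higher (32.5%, against 35.7% of all genes) and 2 lower (against 0.917%), with a median log2 fold change of 2.04, beside 2.01 over all genes. Rbbp7, a histone-binding subunit of Polycomb and deacetylase complexes, rose from 73.2 and 147 CPM with IgG to 839 and 858 CPM with anti-His (log2 fold change 3.02, limma adjusted p = 0.0225). Of the 13, Rbbp7 and Phf8 alone reached 1 CPM in an IgG library. The other 11 entered the test only through the anti-His libraries, among them the COMPASS subunit Cxxc1, at 0 and 0.427 CPM with IgG and at 79.98 and 57.0 CPM with anti-His, and the arginine methyltransferase Carm1, at 0.338 and 0 CPM against 29.3 and 39.3 CPM. Wdr82, which recruits Setd1a and Setd1b complexes to RNA polymerase II, was lower, at 1622 and 739.5 CPM with IgG and at 183 and 149.5 CPM with anti-His (log2 fold change -2.72, limma adjusted p = 0.0297). Phf1, a Polycomb-associated protein, was the other lower gene.

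Levels in control embryos and in the pulldowns could be set side by side for 46 genes at 5 CPM or more in the controls. The tables were normalized separately and no test was made. All 4 pulldown libraries lay above both controls for 7 of them (15.2%, against 9.84% of 9000 genes) and below both for 13 (28.3%, against 39.7%). The 7 were Kmt2d, Kmt2b, Kdm6b, Setd4, Prmt2, Kdm4b and Setd1a. Kmt2d, at 18.7 and 22.5 CPM in control embryos and at 113 to 467 CPM in the pulldowns, and Kmt2b, at 13.7 and 13.1 CPM and at 141 to 434 CPM, are examples, and both were abundant with IgG as well as with anti-His.

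Setd2 showed the opposite, at 685 and 889 CPM in control embryos and at 4.22 to 28.2 CPM in the pulldowns, and with it Kdm3a, at 167 and 177 CPM against 0 to 12.8 CPM. Kmt2c, Kdm6a, Kdm7a, Ezh2 and Kmt5a were also lower in all 4 pulldown libraries. Kdm5b was not among them, because 1 IgG library held 1062 CPM. Of 30 methyltransferases 5 were above and 9 below, and of 16 demethylases 2 were above and 4 below. Of all genes at that control level, 9.84% were above and 39.7% below. Each class thus had a larger share above and a smaller share below than all genes. The classes were not tested against each other or against all genes. The median log2 ratio of anti-His to control was -0.23 for the enzyme genes and -0.46 for all genes, and that of IgG to control was -0.13 against -2.48. By class the ratio of IgG to control was 0.31 for methyltransferases and -0.44 for demethylases, and that of anti-His -0.23 and -0.32. Each gene's ratio took the mean CPM of the 2 replicates, so 1 high IgG library could set it. Prmt3, for example, stood at 0 and 323 CPM with IgG and had a log2 ratio of 4.69. The IgG replicates of the enzyme genes tested lay a median of 2.21 apart on the log2 scale, against 0.97 for all genes.

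**Figure D4:**
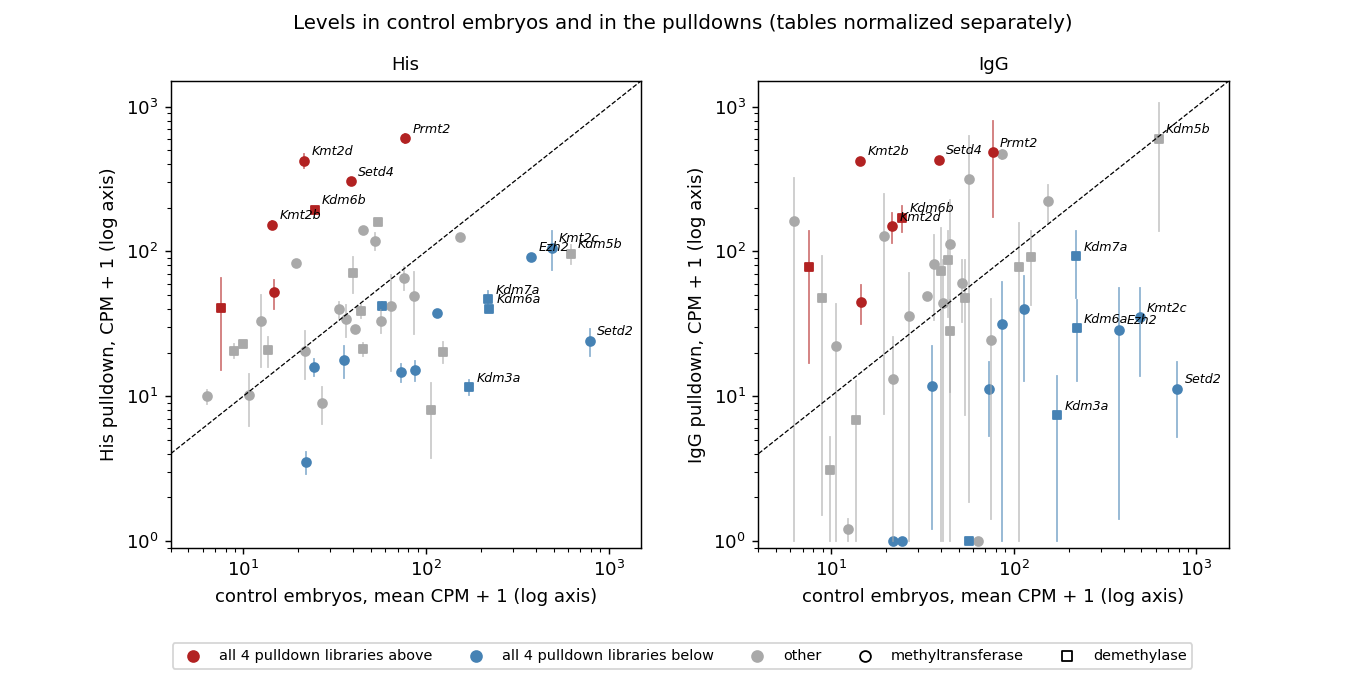
Mean CPM + 1 in control embryos (horizontal, log axis) against CPM + 1 in the anti-His pulldown (left, log axis) and the IgG pulldown (right, log axis) for the 46 genes; points are means of the 2 replicates, vertical lines join the replicates, circles are methyltransferases, squares demethylases, and the dashed line marks equal values. Kmt2d, Kmt2b and Prmt2 lie above the line and Setd2, Kdm3a and Ezh2 below it in both panels. The lines joining replicates are longer for IgG in many genes, but not in Nsd2, Setd6, Suv39h1, Kmt2b, Setd4, Prmt6, Prmt7, Kmt2e or Kdm4dl.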

How the data were processed

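RNA from pools of 2-cell embryos was made into cDNA with a Smart-seq2 v4 kit and Nextera XT and read as 150 bp pairs, per the labels' protocols; this PCR-based library keeps neither strand nor molecular identifiers, so depth covers counting error only and reads of antisense neighbours cannot be told apart. Per the submitters' processing notes the tools were Trim Galore 0.6.7, FastQC, HISAT2 2.2.1, featureCounts 2.0.1 and edgeR, with build GRCm39. The deposited values are CPM per gene, made by the authors in separate tables for the knockdown and the pulldown. In each of the 8 libraries 100% of positive values were whole multiples of 1 read (tolerance 0.01), which gave the recovered reads. Of the pulldown table, 4 value columns could not be tied to a sample and are not used, so input and total RNA levels were not analysed here.

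Each table was fitted separately with limma 3.58.1 (R 4.3.3) on log2(CPM + 1), with a trended prior, a filter of 1 CPM in 2 libraries, two-sided tests and Benjamini-Hochberg adjustment at 0.05. A fold change on this scale understates the change of low genes. With 2 libraries against 2, an exact permutation test cannot go below 0.333, so the test borrows its spread from all genes. The alternatives included edgeR 4.0.16 and DESeq2 1.42.0 on recovered reads. These and the limma fit were run on data simulated from the means and read totals of the knockdown and control libraries. The pulldown was not simulated, and as no outcome is given here the simulation does not vouch for the fits. Gene lengths were not used, so levels were not ranked between genes, and class sums and a gene's share of them count reads and not transcripts per length. The members, the gene lists and the motifs were chosen with earlier results of these data known, and the comparison of control embryos with pulldowns was chosen after seeing the data. A fold change was printed for members whose groups did not overlap at a mean of 5 CPM or more, up to 10 per direction, and for any called member, besides Kmt2d in the pulldown; partner genes came from a list of 49. Alternatives were pseudocounts of 0.1 and 5, no filter, a mean of 5 CPM, median rescaling, quantile normalization, a replicate block, the count tools and leaving out each replicate.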

Additional observations from a re-analysis of the deposited data

How the results depend on the processing

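Between knockdown and control the count of called enzyme genes stayed at 0 under every alternative except leaving out a replicate, which gave 0 to 7; the 7 came without knockdown replicate A, when 1250 of all genes (9.38%) were called. The knockdown medians kept their sign, with -0.30 to -0.10 for methyltransferases and -0.31 to -0.012 for demethylases when a replicate was left out. The labels do not say that replicate letters mark shared handling. Samples of one letter deviated together weakly in the knockdown table (correlation 0.15) and not in the pulldown table (correlation -0.014). With the replicate block, 0 enzyme genes were called in the knockdown and 5 in the pulldown, and the call of Suv39h1 was lost (limma adjusted p = 0.113). For the pulldown the count of 6 became 0 after quantile normalization, 0 in edgeR, 11 in DESeq2, 3 with the replicate block and median rescaling, and 5 to 33 when a replicate was left out. The methyltransferase median of 0.93 became 1.48 with a pseudocount of 0.1, -2.99 with median rescaling, with or without the block, -0.71 after quantile normalization, 0.096 in edgeR and -0.19 in DESeq2, and 0.44 to 1.32 when a replicate was left out. The demethylase median of 0.73 became -3.19 with median rescaling, with or without the block, and -1.02 with quantile normalization, was 0.058 in edgeR, -0.21 in DESeq2 and 0.20 with a pseudocount of 5, and ran from -0.27 to 1.67 when a replicate was left out. Over all genes the pulldown median was 2.01 as reported, -1.92 after median rescaling and -0.08 after quantile normalization. Median rescaling shifted every gene alike by -3.93, so 29 of the 49 enzyme genes tested changed sign by construction. Among those named with a fold change in the pulldown these were, with or without the block, Ezh2 (-0.57), Kdm3b (-1.43), Kdm4a (-1.28), Kdm5c (-0.60), Kdm8 (-0.94), Kmt2e (-2.14), Setdb1 (-0.94) and Kmt2d. Quantile normalization changed the sign of 18 of the 49, among those named Kdm3b (-0.25), Kdm5c (-0.078), Kdm8 (-0.39) and Kmt2e (-0.47). The cause of the other changes was not tested. IgG libraries with most genes at 0 limit the depth of the pulldown contrast.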
